A study of Mus musculus with 4 samples.

Results

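The genes described are Aqp4, Gja1, Sox9, F3, Plpp3, Prodh, Cldn10 and Fzd2, which mark astrocytes or serve their housekeeping tasks. They are 8 of the 383 genes of a MERFISH panel, were picked by name from a list, and all of them passed the filter on low counts in every comparison. MERFISH counts single mRNA molecules in place by repeated rounds of imaging. It was applied to 4 bilateral coronal sections of the striatum, each 10 µm thick, from wild-type C57BL/6NTac mice, 2 of them from mice of 2 months, called young, and 2 from mice of 18 months, called aged. The study used males and females in alternating batches, and the sex of each section was not given in the sources used here. No mouse carried a transgene or received a treatment, so age is the group that the labels define. A legend of the study counts the sections as separate mice, while the labels name no mouse, and the p-values measure the spread between these sections, technical spread included.

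Astrocytes tile the brain, wrap synapses and send flattened endfeet onto blood vessels and to the brain surface. Aqp4 encodes the water channel that is packed into these endfeet, and Gja1 encodes connexin 43, the main protein of the gap junctions that couple astrocytes into networks. Sox9 is a transcription factor that sets glial fate and is kept in adult astrocytes and in the ependymal cells that line the ventricles. F3 encodes tissue factor, the cell surface starter of blood clotting, which astrocytes make as part of the barrier around vessels. Plpp3 encodes a membrane phosphatase that breaks down signalling lipids such as lysophosphatidic acid, Prodh the mitochondrial enzyme that starts the breakdown of proline, Cldn10 a claudin, a member of the tight junction proteins, and Fzd2 a receptor for Wnt ligands. In the adult brain, astrocytes of white matter and astrocyte-like stem cells of the ventricle wall differ from the astrocytes of grey matter in shape and in Gfap, an intermediate filament protein.

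Between 68011 and 74624 cells per section were kept, with 18765491 to 36035355 transcripts. The median number of transcripts per kept cell was lowest, at 215, in aged replicate 1, which was the shallowest section, and lay between 293 and 400 in the others. No cell identifier was shared between sections. Cells were sorted into classes without any of the 8 genes, and the names of the classes were rebuilt from other markers because no annotation of the cells was used. Astrocyte-like cells numbered 5674 and 6996 in young sections and 6247 and 6415 in aged sections. Cells in which markers of another class were also detected were then left out, which left 3317, 4723, 4278 and 4015 astrocyte-like cells in the same order, with medians of 125, 77, 77 and 95 transcripts. Although they took no part in the sorting, 7 of the 8 genes (all but Cldn10) were among the 10 genes with the highest fold in the astrocyte-like cluster once they were added back. Levels are given as transcripts of a gene per 10000 panel transcripts summed over the cells of a section, and lists of 4 values follow the order young replicate 1, young replicate 2, aged replicate 1 and aged replicate 2. Such a level is a share: it cannot tell fewer positive cells from less RNA per cell, and it moves when other panel genes move. Probes differ in number and brightness between genes, so levels of different genes are not compared.

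Astrocyte-like cells held the highest mean level of 7 of the 8 genes among 12 classes of cells. In the 4 sections the level of F3 was 4.20 ± 0.85 times (SD, n = 4) that of the next class, that of Cldn10 3.79 ± 0.93 times, that of Prodh 3.65 ± 0.34 times and that of Plpp3 3.51 ± 0.30 times. The lead was smaller for Gja1 (1.78 ± 0.18 times the level of ependymal-like cells) and Fzd2 (1.68 ± 0.37 times the level of neuroblast-like cells). In all 4 sections these 6 genes were higher in astrocyte-like cells than in any other class. Sox9 stood apart from them. Its mean was 236 ± 32.1 in ependymal-like cells and 136 ± 16.2 in astrocyte-like cells, and the ranges of the 4 sections did not overlap. Classes were built from genes that vary with the 8 genes, so these ratios are a description and were not tested.

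**Figure D1:**
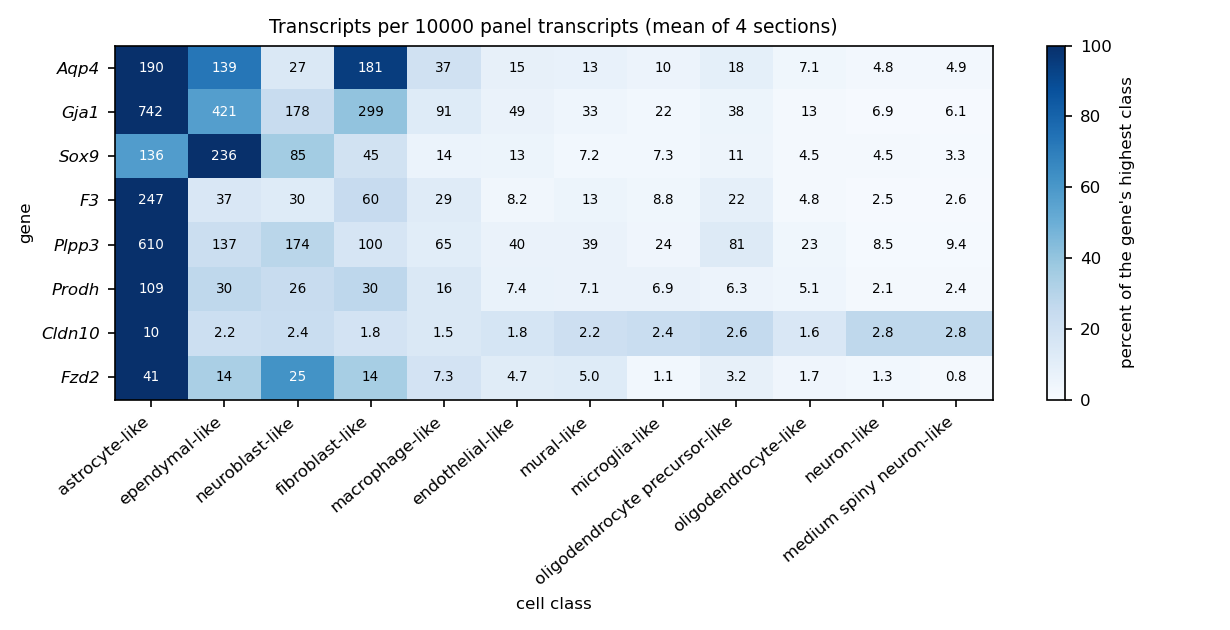
Mean level of each of the 8 genes (horizontal axis: 12 cell classes, vertical axis: genes) in transcripts per 10000 panel transcripts over 4 sections, with colour giving the level as a percent of the gene's highest class. Astrocyte-like cells are the highest class for 7 genes, and ependymal-like cells are the highest for Sox9.

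For Aqp4 the order of the first classes was not settled. Its level was 190.4 ± 21.0 in astrocyte-like cells and 181 ± 34.2 (SD, n = 4) in fibroblast-like cells, and the ranges overlapped. The fibroblast-like class was named by markers of the cells that line the meninges and large vessels. Gfap was among the leading genes of the fibroblast-like cluster. Fibroblast-like cells with at least 3 detected astrocyte markers held Aqp4 at 299 and 335 in young sections and 261 and 252 in aged sections. Those with 0 or 1 detected astrocyte marker held it at 24.1, 52.7, 32.6 and 35.4. The Aqp4 of that class therefore lay mainly in cells that also held astrocyte markers, and the part of transcripts that spill across cell outlines was not tested. In the cells with at least 3 astrocyte markers Gfap was between 1040 and 1198, Mgp between 2.96 and 5.03 and Aldh1a2 between 65.8 and 93.5. In those with 0 or 1 the ranges were 189 to 281, 54.4 to 103.5 and 131 to 165. The fibroblast name thus holds less well for the former, from which cells with at least 3 fibroblast markers had been left out as mixed. Per cell volume, Aqp4 was highest in ependymal-like cells, with 0.949 times that level in astrocyte-like cells, and with mixed cells kept it was highest in fibroblast-like cells, with 0.854 times that level.

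In endothelial-like, mural-like and neuron-like cells most of the 8 genes were low. Mixed cells of these classes had been left out too, among them cells with at least 3 astrocyte markers beside their own. In young replicate 1 the step cut endothelial-like cells from 4999 to 1948. Low levels of astrocyte genes in these classes were therefore in part set by this step. In endothelial-like cells Aqp4 stood at 8.08% of its level in astrocyte-like cells and Gja1 at 6.61%, in mural-like cells at 7.12% and 4.44%, and in neuron-like cells at 2.53% and 0.932%. The median of the 8 genes was 7.50% in endothelial-like cells, 6.52% in mural-like cells and 2.27% in neuron-like cells. Cldn10 was the highest of the 8 in each of these classes, at 17.2%, 22.3% and 27.7%. Fibroblast-like and neuroblast-like cells held more, with medians of 30.4% (16.3% for Plpp3 to 94.3% for Aqp4) and 24.1% (12.4% for F3 to 61.8% for Fzd2). A list of 22 other astrocyte genes had medians of 18.7%, 15.4% and 5.46% in endothelial-like, mural-like and neuron-like cells. With the 8 genes and the 22 others ordered by this percent in endothelial-like cells, Aqp4 was at rank 22 of 30. Leaving out mixed cells limits what this rank says of endfeet on endothelial cells.

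Across the 48 values of 12 classes in 4 sections, each gene had other panel genes with a similar pattern, measured by Pearson's r of log2 levels. The values share sections and classes, so r is a description. Aqp4 ran most closely with Prdx6 (r = 0.893), an antioxidant enzyme, and Apoe (0.884), the lipid carrier. Gja1 was closest to Clu (0.953) and Prdx6 (0.946), Prodh to Prdx6 (0.921) and Clu (0.902), and Sox9 to Ezr (0.976) and Clu (0.958). F3 was closest to Slc6a11 (0.927), a transporter of the transmitter GABA, and Itih3 (0.92), Plpp3 to Itih3 (0.943) and Slc6a11 (0.925), and Fzd2 to Itih3 (0.924) and Clu (0.91). Cldn10 had no close partner in the panel, with Kcnk1 at 0.723 and Thrsp at 0.555.

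The first comparison asked how the genes differ at the ventricle wall, where astrocyte-like stem cells lie beneath the ependyma. Zones were set without any of the 8 genes. The wall held the astrocyte-like cells within 100 µm of grouped ependymal-like cells, 176 and 189 cells in the young and 225 and 222 in the aged sections. The striatum held the cells whose neighbours within 150 µm were at least 40% medium spiny neuron-like, inside the 2 striatal outlines of a section, with 736, 811, 757 and 718 cells. A gene was called when its p, adjusted over all panel genes tested, was under 0.05. At the wall 6 of the 8 genes were lower than in the striatum and none was higher, while 38.3% of the 269 panel genes tested differed, 19.7% lower and 18.6% higher. The median log2 difference of the 8 genes was -0.57, against 0.07 for all panel genes and 0.02 for the 22 other astrocyte genes.

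Of these 6 genes, F3, Gja1, Plpp3 and Prodh have an entry in the promoter table of RefSeq (GRCm38.p6), and their upstream sequences are shown because these genes were lower together at the wall. Each line gives the 250 bases before the start of transcription in that table, 5′ to 3′ on the strand of the gene. F3 lies at chr3:121723287-121723536 on the plus strand, Gja1 at chr10:56377050-56377299 on the plus strand, Plpp3 at chr4:105157097-105157346 on the plus strand and Prodh at chr16:18089191-18089440 on the minus strand. Other positions in the text are those of GENCODE, whose Prodh gene starts further upstream, so the stretch shown for Prodh lies inside that gene. Capitals mark matches to motifs that were searched on both strands: TGAGTCA, the letters bound by AP-1, ACAAAG and AACAAT, core letters of Sox factors, and CAGCTG, an E-box of bHLH factors.
F3: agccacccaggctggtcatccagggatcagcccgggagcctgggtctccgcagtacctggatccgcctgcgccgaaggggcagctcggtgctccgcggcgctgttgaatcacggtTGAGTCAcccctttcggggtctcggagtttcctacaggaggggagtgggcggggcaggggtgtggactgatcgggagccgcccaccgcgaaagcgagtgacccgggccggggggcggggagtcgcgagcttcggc
Gja1: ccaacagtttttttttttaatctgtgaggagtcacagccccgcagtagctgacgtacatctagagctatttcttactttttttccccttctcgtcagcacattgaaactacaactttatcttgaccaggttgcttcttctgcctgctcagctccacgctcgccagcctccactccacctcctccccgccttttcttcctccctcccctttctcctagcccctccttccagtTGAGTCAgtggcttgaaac
Plpp3: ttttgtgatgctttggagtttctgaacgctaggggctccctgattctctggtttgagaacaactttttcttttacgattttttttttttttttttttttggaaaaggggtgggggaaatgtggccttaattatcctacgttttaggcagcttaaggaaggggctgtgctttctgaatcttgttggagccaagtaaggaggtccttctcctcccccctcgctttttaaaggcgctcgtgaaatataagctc
Prodh: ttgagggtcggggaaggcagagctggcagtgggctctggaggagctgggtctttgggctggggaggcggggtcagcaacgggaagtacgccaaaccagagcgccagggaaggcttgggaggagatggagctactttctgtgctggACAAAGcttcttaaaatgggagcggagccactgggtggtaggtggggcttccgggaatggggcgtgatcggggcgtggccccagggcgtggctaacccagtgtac
The F3 sequence held 1 match to TGAGTCA and Prodh 1 match to ACAAAG. No match of the 4 motifs overlapped another. Gja1 held 1 match to TGAGTCA and Plpp3 none. Of 32851 promoters of this length, 4.46% held TGAGTCA, 16.5% ACAAAG, 9.42% AACAAT and 13.0% CAGCTG. The 4 promoters were unlike in base composition, with 70.0% G and C and 24 CG pairs in F3, 63.2% and 11 in Prodh, 42.4% and 6 in Plpp3, and 6 pairs in Gja1. A match is a stretch of letters, not a measured site.

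The water channel gene Aqp4 had a difference as large as any of the 8. Its level at the wall was 63.6 and 85.0 in young sections and 85.9 and 78.1 in aged sections. In the striatum it was 169 and 189 in the young and 151 and 165 in the aged sections. Every striatal value was above every wall value, and the level was 2.51-fold lower at the wall (log2 difference -1.33 ± 0.11 SE, adjusted p = 5.0e-05, edgeR). With each cell of at least 50 transcripts thinned to 50 transcripts, Aqp4 was detected in 20.1% and 28.2% of wall cells of the young sections and 36.4% and 34.0% of the aged sections, against 55.1%, 61.3%, 49.8% and 52.7% of striatal cells. The median depth of the cells before thinning was 97, 86, 41 and 47 transcripts at the wall and 142, 92, 85 and 106 in the striatum. Without thinning the shares were 32.4%, 40.7%, 33.3% and 32.0% at the wall and 74.7%, 67.7%, 60.8% and 66.9% in the striatum. Thinning needs cells of 50 transcripts or more, which were 137 of 176, 135 of 189, 95 of 225 and 101 of 222 cells at the wall and 583 of 736, 560 of 811, 513 of 757 and 525 of 718 in the striatum. The aged sections thus lost more of their wall cells to this step.

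F3 and Fzd2 were lower by a similar factor. F3 (chr3:121723537-121735048, plus strand) was at 128 and 117 in the young and 132 and 110.3 in the aged sections at the wall, against 234, 224, 263 and 257 in the striatum. The groups did not overlap, and F3 was 2.32-fold lower (log2 difference -1.22 ± 0.10 SE, adjusted p = 4.5e-05). Fzd2 (chr11:102604396-102608058, plus strand) was at 29.2 and 22.2 in the young and 34.5 and 21.2 in the aged sections at the wall, and at 57.9, 53.3, 54.4 and 57.2 in the striatum. It was 2.44-fold lower (log2 difference -1.29 ± 0.16 SE, adjusted p = 4.0e-04), from between 31 and 63 transcripts per section at the wall.

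The enzyme genes Prodh and Plpp3 and the connexin gene Gja1 were lower by less. Prodh (chr16:18060357-18090203, minus strand) was at 87.8 and 95.2 in the young and 80.05 and 76.8 in the aged sections at the wall, against 152, 130.4, 118 and 100.5 in the striatum, 1.70-fold lower (log2 difference -0.76 ± 0.11 SE, adjusted p = 8.7e-04). Within each section the wall was the lower zone. Plpp3 (chr4:105157347-105232764, plus strand) was at 779.6, 688, 511 and 653 at the wall and 767, 736, 633 and 779.7 in the striatum in the same order of sections. Its values overlapped between zones and young replicate 1 was slightly higher at the wall, while the fit with the section as a block gave a log2 difference of -0.37 ± 0.08 SE (adjusted p = 0.00754). Gja1 (chr10:56377330-56402513, plus strand) was at 689, 690.3, 682 and 562 at the wall and 711, 718, 688 and 642 in the striatum, with a log2 difference of -0.29 ± 0.07 SE (adjusted p = 0.00786). Both lost the call when levels were scaled to library size alone (Plpp3 -0.16, Gja1 -0.08), which moved the median of all panel genes from 0.07 to 0.28, and both lost it without aged replicate 1 (-0.31 and -0.29). Of the 12 alternatives, Plpp3 was called in 9 and Gja1 in 8. Aqp4, F3, Fzd2 and Prodh were lower in all 12 alternatives, each time past the threshold.

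Sox9 and Cldn10 were not called at the wall. Sox9 (chr11:112782224-112787760, plus strand) was at 182, 130.4, 112 and 151 at the wall and 136, 129, 123 and 156 in the striatum, so its values overlapped. Cldn10 (chr14:118787908-118875489, plus strand) rested on 13 to 25 transcripts per section at the wall and was at 11.6, 11.1, 17.6 and 8.91, against 7.69, 10.9, 11.9 and 8.77 in the striatum. Among the 22 other astrocyte genes, 13 differed at the wall, 4 higher and 9 lower. The largest differences were those of Hopx (log2 difference 2.82), Gfap (2.53), S100b (-2.20), a calcium-binding protein of mature astrocytes, and Thrsp (1.55). Markers of other classes moved as well. The summed level of the 4 neuroblast markers in astrocyte-like cells was 46.4, 57.5, 27.9 and 61.0 at the wall and between 17.4 and 21.7 in the striatum. The 7 neuron markers summed to between 109 and 185 at the wall and between 53.2 and 88.7 in the striatum, and the 3 ependymal markers to between 4.80 and 16.4 against 4.81 to 5.80. The part of these cells in the differences was not tested.

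**Figure D2:**
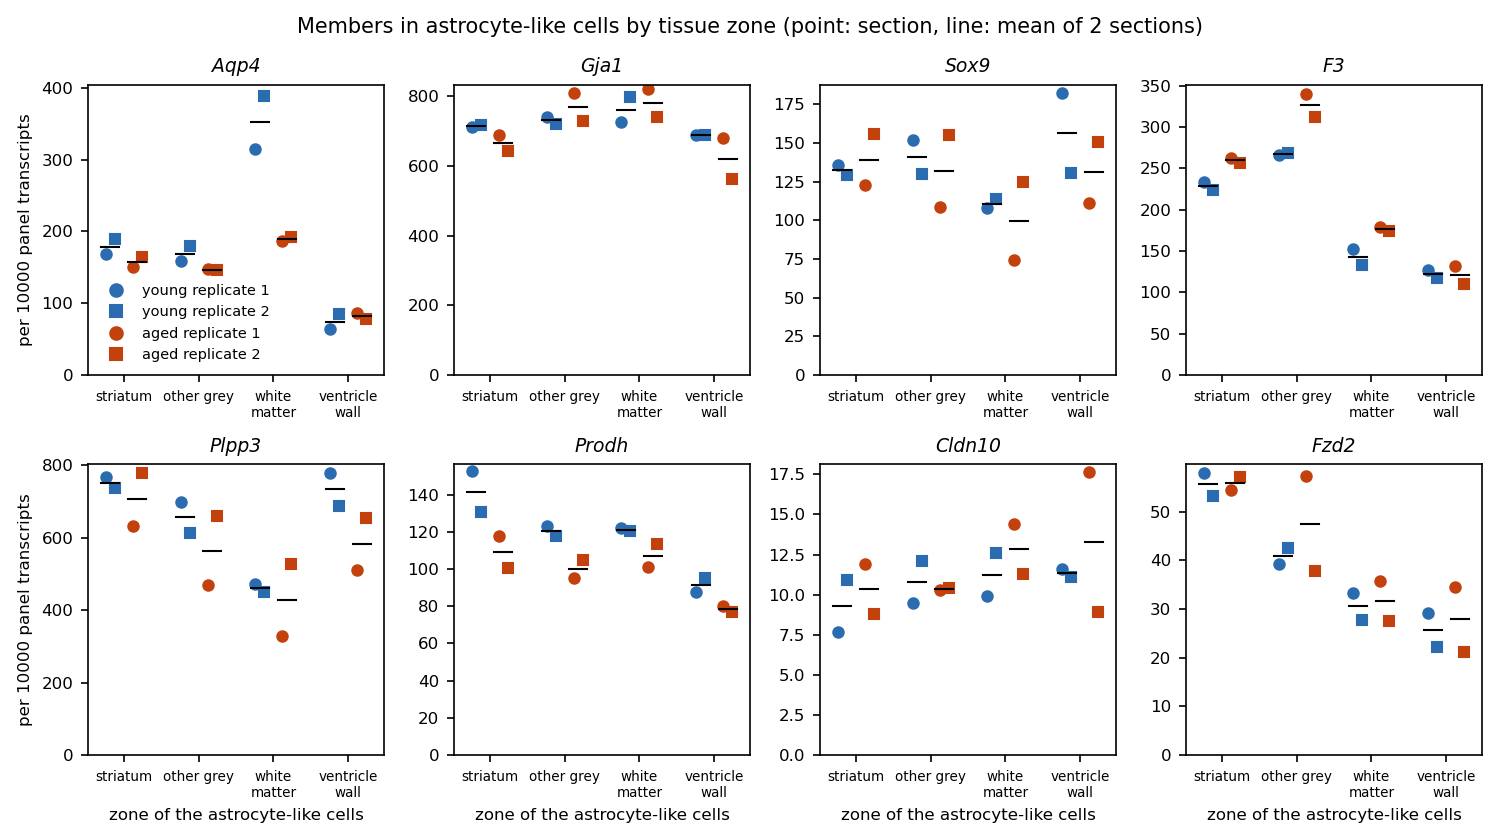
Level of each gene in astrocyte-like cells (vertical axis, transcripts per 10000 panel transcripts) in the striatum, other grey matter, white matter and ventricle wall, with 1 point per section, coloured by age, and a line at the mean of the 2 sections of an age. Aqp4 is highest in white matter of the young sections (315 and 388) and lowest at the wall (63.6 to 85.9), and F3 is lowest at the wall (110.3 to 132).

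Levels were also set out by distance from the ventricle, without a test. The innermost and outermost intervals are given, and the outermost took in astrocyte-like cells regardless of zone. Within 50 µm of grouped ependymal-like cells Aqp4 was at 35.2 and 87.4 in the young and 75.4 and 59.1 in the aged sections, and between 200 and 400 µm at 162, 200.4, 146 and 142. F3 was at 107, 102, 118 and 90.6 within 50 µm and at 221, 195, 233 and 209.5 between 200 and 400 µm. Both genes had their lower level in the inner interval in all 4 sections. Gja1 was at 626, 645, 651 and 418 within 50 µm and at 854, 885, 904 and 746 between 200 and 400 µm.

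Near grouped fibroblast-like cells Aqp4 and F3 ran in opposite directions. Within 50 µm of such cells, an interval called the rim here, Aqp4 was at 366 and 401 in the young and 352 and 295 in the aged sections. More than 400 µm away it was at 165, 190.1, 147 and 151. Every section held more Aqp4 in the astrocyte-like cells of the rim. No outline of the brain was drawn, so the rim cannot be equated with the brain surface. The fibroblast-like class also included cells rich in Aqp4 and Gfap, and their part in the level of the rim was not tested. F3 was at 164, 156, 184 and 193 in the rim and 245, 229, 275 and 269 beyond 400 µm, and Fzd2 at 15.9, 14.6, 26.2 and 18.0 against 45.9, 43.8, 49.8 and 42.0. Gja1 showed no such split, with 707, 722, 703 and 771 in the rim and 739, 752, 796 and 707 beyond 400 µm. These intervals were not fixed as a comparison and were not tested.

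**Figure D3:**
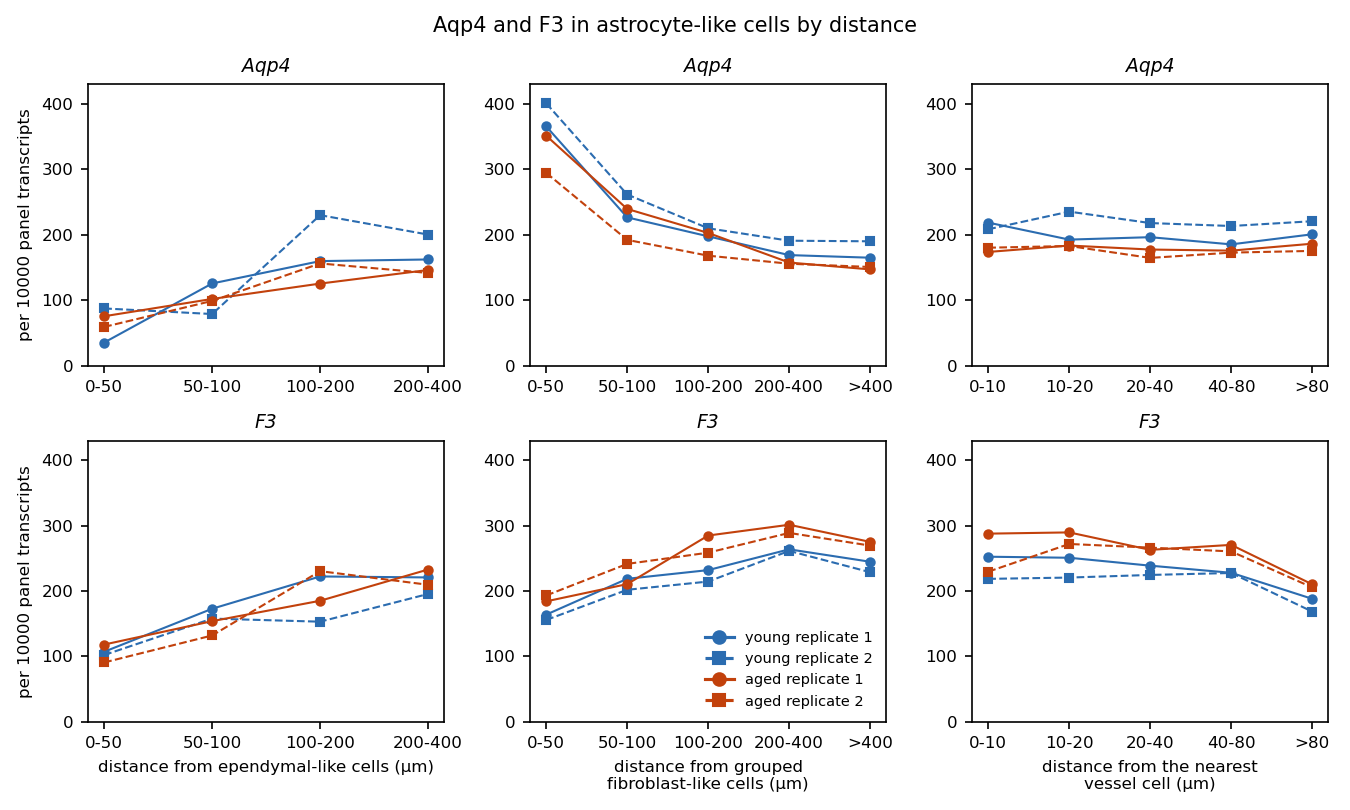
Level of Aqp4 and F3 in astrocyte-like cells (vertical axis, transcripts per 10000 panel transcripts) by distance in µm from grouped ependymal-like cells, from grouped fibroblast-like cells and from the nearest vessel cell, with 1 line per section. Aqp4 is highest beside fibroblast-like cells (295 to 401 within 50 µm) and lowest beside ependymal-like cells (35.2 to 87.4 within 50 µm), and by distance from vessels it lies between 165 and 236.

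White matter was compared with the striatum next. It held the astrocyte-like cells whose neighbours within 150 µm were at least 40% oligodendrocyte-like, 209 and 205 in the young and 353 and 297 in the aged sections. Of the 8 genes, 7 differed, 3 higher and 4 lower in white matter, and 57.4% of the 270 panel genes tested differed, 27.8% higher and 29.6% lower. The count was 4 without young replicate 2 and 4 without aged replicate 1, and Aqp4, F3, Plpp3 and Fzd2 remained called in all 12 alternatives. The median log2 difference of the 8 genes was -0.16, against 0.00 for all panel genes and -0.12 for the other astrocyte genes.

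The water channel gene was higher there. The level of Aqp4 in white matter was 315 and 388 in young sections and 187 and 193 in aged sections, against 169, 189, 151 and 165 in the striatum. Each section was higher in white matter, the young ones by more, and the fit gave a 1.65-fold higher level (log2 difference 0.72 ± 0.13 SE, adjusted p = 2.8e-04). Gja1, the coupling gene, was at 726 and 797 in the young and 821 and 742 in the aged sections, above the striatal values of 711, 718, 688 and 642 in each section. Its log2 difference was 0.26 ± 0.10 SE (adjusted p = 0.0413) and was turned to -0.075 when counts were taken per cell volume, and the call was lost without young replicate 2 and without aged replicate 1 (0.29 and 0.21). Cldn10 was at 9.92, 12.6, 14.4 and 11.3 in white matter, from 34 to 59 transcripts per section, with a log2 difference of 0.40 ± 0.16 SE (adjusted p = 0.0421). Gja1 remained called in 7 of the 12 alternatives. Cldn10 remained called in 3 of them, and in none that left out a section.

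The other genes called in white matter were lower. F3 was at 152 and 133 in the young and 179 and 174 in the aged sections, below the lowest striatal value of 224, with a log2 difference of -0.52 ± 0.10 SE (adjusted p = 5.6e-04). Plpp3 was at 471, 451, 328 and 528, below each striatal value (633 to 779.7), with a log2 difference of -0.63 ± 0.10 SE (adjusted p = 6.0e-05). Fzd2 was at 33.3, 27.8, 35.7 and 27.6 and also did not overlap the striatum (53.3 to 57.9), with a log2 difference of -0.75 ± 0.13 SE (adjusted p = 1.6e-04). The transcription factor Sox9 was at 108, 114, 74.5 and 125, lower than the striatum in each section, with a log2 difference of -0.29 ± 0.11 SE (adjusted p = 0.0348), but it lost the call without any of the 4 sections in turn (-0.33 to -0.20). Sox9 remained called in 7 of the 12 alternatives. Prodh was not called, with 122, 120.2, 101 and 113 in white matter, inside the striatal range of 100.5 to 152.

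Of the 22 other astrocyte genes, 15 differed in white matter, 7 higher and 8 lower, led by Gfap (log2 difference 4.16), Hes5 (-2.47), a target of Notch signalling, Hopx (2.37) and Thrsp (1.69). The 6 oligodendrocyte markers summed to 70.3, 77.1, 73.6 and 52.8 in astrocyte-like cells of white matter and to between 21.1 and 29.7 in the striatum. The 5 fibroblast markers summed to 199.5 and 190.0 in the young and 120.0 and 138 in the aged sections, against 16.1 to 20.7 in the striatum. Nearly all of that sum was Igfbp5 (197, 188, 117 and 135), so the defining fibroblast markers beside it were near 0. Leaving out the astrocyte-like cells within 100 µm of grouped fibroblast-like cells, a step added after the data were seen, left Aqp4 in white matter at 308, 381, 166 and 188.5. The part of oligodendrocyte transcripts in the differences was not tested.

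Other grey matter differed less from the striatum. It held 1041 and 2104 astrocyte-like cells in the young and 1553 and 1481 in the aged sections, whose neighbours were at least 40% neuron-like cells outside the medium spiny class. Here 5 of the 8 genes differed, 1 higher and 4 lower, while 38.7% of the 315 panel genes tested differed, 21.0% higher and 17.8% lower. Plpp3 had the most secure difference, at 698 and 614 in the young and 469 and 659 in the aged sections against 767, 736, 633 and 779.7 in the striatum. It was lower in each section and in all 11 alternatives (log2 difference -0.37 ± 0.06 SE, adjusted p = 1.1e-04). Fzd2 was at 39.1, 42.5, 57.4 and 37.8, lower than in the striatum in 3 of 4 sections, with a log2 difference of -0.46 ± 0.11 SE (adjusted p = 0.00357), and lost the call without aged replicate 2 (-0.35). Prodh was at 123, 118, 95.4 and 105, with a log2 difference of -0.28 ± 0.08 SE (adjusted p = 0.00873), and lost it without young replicate 1 (-0.21). Of the 11 alternatives, Prodh remained called in 9 and Fzd2 in 10.

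Aqp4 and F3 had small differences in other grey matter. Aqp4 was at 159 and 179.8 in the young and 147 and 146 in the aged sections, lower than the striatum in each section (log2 difference -0.19 ± 0.06 SE, adjusted p = 0.0215), and lost the call without young replicate 1, young replicate 2 or aged replicate 2 (-0.20 to -0.14). F3 was at 266, 269, 339.9 and 313, above each striatal value of its section (log2 difference 0.18 ± 0.06 SE, adjusted p = 0.0362), and turned to -0.063 when mixed cells were kept. Aqp4 was called in 7 of 11 alternatives. F3 was called in 3 of 11 alternatives, and among the sections left out it lost the call without young replicate 2, aged replicate 1 or aged replicate 2 (0.18, 0.10 and 0.20). The count of called genes was 3 without young replicate 1, 3 without young replicate 2 and 2 without aged replicate 2. Gja1 (721 to 810), Sox9 (109 to 156) and Cldn10 (9.46 to 12.1) were not called. The 7 neuron markers summed to 138, 177, 229.8 and 161 in these astrocyte-like cells and to 53.2, 62.2, 88.7 and 67.3 in the striatum, and their part in the differences was not tested. Of the 22 other astrocyte genes 14 differed, 8 higher and 6 lower, led by Hopx (log2 difference 1.91), Thrsp (1.71), Mgst1 (-1.29) and Itih3 (1.23).

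Because Aqp4 and Gja1 sit in endfeet, astrocyte-like cells within 20 µm of an endothelial-like or mural-like cell were compared with those over 40 µm away. The near cells numbered 701 and 896 in the young and 830 and 826 in the aged sections, and the far cells 1257, 1814, 1760 and 1601 in the same order. Cells with at least 3 astrocyte markers and at least 3 endothelial or mural markers had been left out as mixed. A cluster of 1260 cells with astrocyte markers, found among the vessel cells, had been left unnamed. The comparison as reported therefore does not cover these cells. None of the 8 genes passed the threshold by edgeR or by DESeq2, 3 had an unadjusted p under 0.05, and 7.44% of the 336 panel genes tested differed, 2.68% higher and 4.76% lower. Aqp4 was at 198, 230.4, 182 and 182 near vessels and 187, 214, 177 and 173 away from them. Each section was slightly higher near vessels, and the log2 difference was 0.09 ± 0.04 SE (adjusted p = 0.179). Gja1 was at 751, 756, 817 and 739 near and 718, 715, 796 and 711 far (log2 difference 0.07 ± 0.03 SE, adjusted p = 0.150), and F3 at 251, 220.2, 289 and 265 near and 225, 221, 264 and 254 far (0.10 ± 0.04 SE, adjusted p = 0.0966).

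Fzd2 was at 36.9, 38.1, 45.8 and 34.4 near and 42.8, 40.7, 46.6 and 39.1 far, lower near vessels in each section but not called. The values near vessels ranged from 109 to 151 for Sox9, 480.1 to 681 for Plpp3, 97.6 to 129.7 for Prodh and 7.54 to 11.6 for Cldn10, against 117 to 147, 511 to 666, 92.5 to 124 and 8.82 to 11.9 far from them. The near and far values of Aqp4, Gja1 and F3 lay close together, and the choices of the fit decided their calls. Taken per cell volume, 6 of the 8 genes were called and the median of all panel genes moved to 0.11. Of all panel genes, 45 were then called higher near vessels and 10 lower. Without aged replicate 1, Aqp4 (0.11, adjusted p = 0.0254) and Gja1 (0.09, adjusted p = 0.00371) were called. Within the striatal zone alone, the log2 difference of Gja1 was -0.0078. Of the 22 other astrocyte genes, 7 differed near vessels, 3 higher and 4 lower, with Gfap (log2 difference -0.41), Hes5 (-0.33), Dio2 (0.22), which activates thyroid hormone, and Rorb (0.16) in front. The finer intervals gave Aqp4 at 219, 208.5, 174 and 180.3 within 10 µm of a vessel cell and at 201, 221, 186 and 175 beyond 80 µm. Segmented cells are bodies with their near surroundings, and transcripts in endfeet far from a body were not counted for its cell.

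The dorsal and ventral striatum differed in 2 of the 8 genes, both higher dorsally, where 20.3% of the 251 panel genes tested differed, 9.16% higher and 11.2% lower. The dorsal part held 371, 431, 380 and 305 astrocyte-like cells and the ventral part 365, 380, 377 and 413. Prodh was at 178 and 144 in the young and 128 and 127 in the aged sections dorsally, and at 127, 114, 109 and 81.4 ventrally. It was higher dorsally in each section, with a log2 difference of 0.46 ± 0.08 SE (adjusted p = 7.7e-05), and remained called in all 11 alternatives. Cldn10 was at 7.99, 11.6, 15.4 and 12.5 dorsally and 7.38, 10.1, 8.80 and 6.09 ventrally, from 33 to 64 transcripts per part and section, with a log2 difference of 0.56 ± 0.18 SE (adjusted p = 0.0259). It lost the call without aged replicate 1 (0.44) and without aged replicate 2 (0.40), which left Prodh as the called gene. Cldn10 remained called in 5 of the 11 alternatives. Sox9 was at 132, 118, 107 and 145 dorsally and 139.9, 142, 137 and 163 ventrally, lower dorsally in each section but not called (log2 difference -0.18 ± 0.07 SE, adjusted p = 0.0771).

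The other 5 genes were not called along this axis. Aqp4 ranged from 149 to 195 dorsally and 152 to 182 ventrally, Gja1 from 602 to 729.9 and 672 to 726, and Plpp3 from 595 to 796 and 666 to 772. F3 ranged from 227 to 263 dorsally and 219 to 269.9 ventrally, and Fzd2 from 57.3 to 59.5 and 48.6 to 58.1. The ranges overlapped in each case. Among the 22 other astrocyte genes, 10 differed, 5 in each direction, led by Fabp7 (log2 difference -1.20), Dio2 (0.66), Mgst1 (0.63) and Hes5 (-0.49).

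Age was then compared in all astrocyte-like cells and in those of the striatum. None of the 8 genes passed the threshold in either set by edgeR or by DESeq2, and 0.0% of the 370 and of the 277 panel genes tested did. At an unadjusted p under 0.05 there were 2 of the 8 in each set, and DESeq2 called 1 panel gene in each. In all astrocyte-like cells Prodh was at 125 and 115 in the young and 98.3 and 96.4 in the aged sections, a log2 difference of -0.35 ± 0.13 SE (adjusted p = 0.646). Aqp4 was at 193 and 219 in the young and 178 and 172 in the aged sections (-0.28 ± 0.12 SE, adjusted p = 0.646). The ages did not overlap for either gene, and the adjusted p did not pass.

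The other genes showed the spread of 2 sections per age. F3 was at 236 and 222 in the young and 268 and 261 in the aged sections. Gja1 was at 738 and 731 against 779.6 and 718, and Sox9 at 148 and 130.1 against 116 and 150.4. Gja1, Sox9 and the next 3 genes overlapped between ages. Plpp3 was at 673 and 612 against 502 and 654, where the lowest value came from the shallowest section, and its log2 difference of -0.20 with all sections was -0.02 without aged replicate 1. Fzd2 (37.5 to 45.3) and Cldn10 (8.76 to 11.5) varied as much within an age as between ages. With counts per cell volume the median of all panel genes was -0.36.

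In the striatum, Prodh was at 152 and 130.4 in the young and 118 and 100.5 in the aged sections (log2 difference -0.45 ± 0.15 SE, adjusted p = 0.344). Gja1 was at 711 and 718 in the young and 688 and 642 in the aged sections (-0.17 ± 0.07 SE, adjusted p = 0.386). Aqp4 was at 169 and 189 against 151 and 165, F3 at 234 and 224 against 263 and 257, and the ages did not overlap for these 4 genes. Without young replicate 2, 3 genes were called lower in aged striatal astrocyte-like cells, Prodh (-0.62), Plpp3 (-0.25) and Gja1 (-0.23), and 14 panel genes passed. With 2 sections per age, a p that misses the threshold does not show that a gene was unchanged. None of the 22 other astrocyte genes passed in either set by edgeR, with 3 and 5 at an unadjusted p under 0.05, and their median log2 differences were -0.13 and -0.11, beside -0.06 and -0.11 for the 8 genes.

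**Figure D4:**
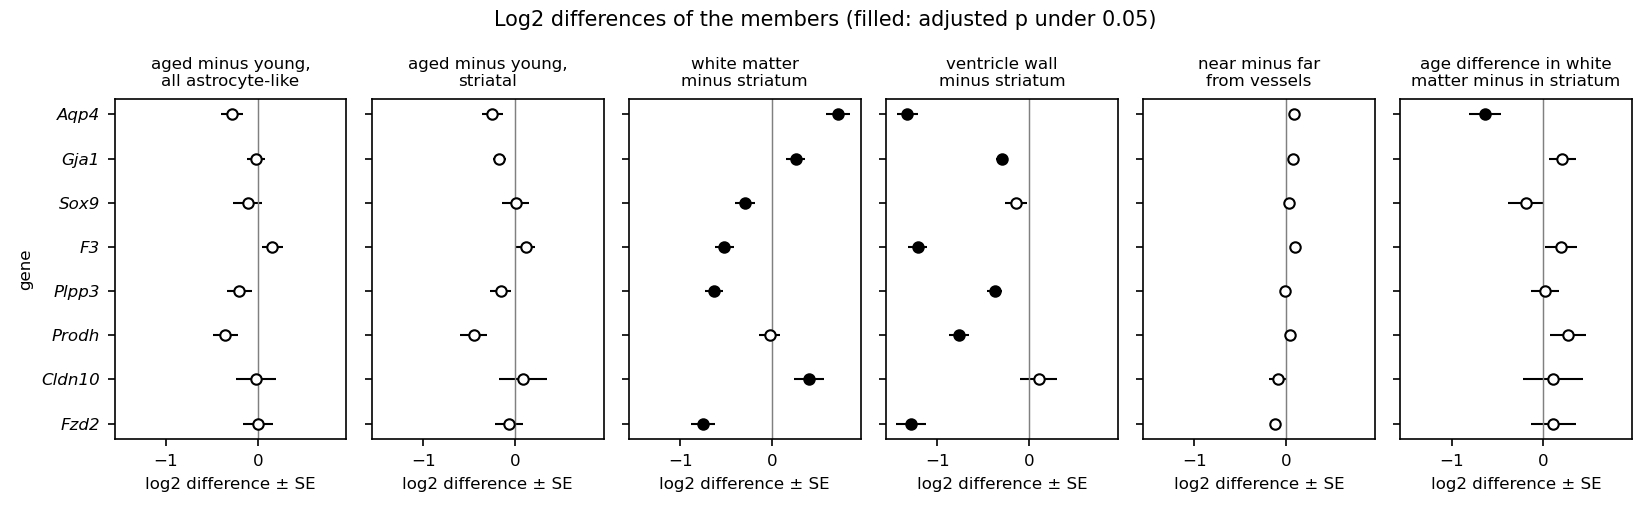
Log2 difference (horizontal axis) with its standard error for each of the 8 genes in 6 comparisons of astrocyte-like cells, fitted with edgeR over 4 sections. Filled points have an adjusted p under 0.05: 7 genes in white matter, 6 at the ventricle wall, and none near vessels or between ages. In the panel of the age difference in white matter minus that in the striatum, Aqp4 alone is filled.

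Whether the change with age differed between zones was tested by the interaction of age and zone for the 8 genes in each of the 5 zone comparisons. Of these tests, 1 passed, Aqp4 in white matter against the striatum, where 2.59% of the 270 panel genes tested passed, 2.22% with the lower change in white matter. The young sections held Aqp4 at 315 and 388 in white matter and the aged sections at 187 and 193, from 1080, 1173, 766 and 818 transcripts. Both young sections were above both aged ones by a wide margin, while in the striatum the values were 169 and 189 against 151 and 165. The change with age was lower in white matter by 0.63 on the log2 scale (-0.63 ± 0.17 SE, adjusted p = 0.0275). It kept its direction in 12 of 12 alternatives (-0.96 to -0.52), but passed in 3 of them, with adjusted p from 0.019 to 0.556. It did not pass without any of the sections in turn (-0.71, -0.65, -0.73 and -0.52 without young replicate 1, young replicate 2, aged replicate 1 and aged replicate 2), nor by DESeq2 (-0.70, adjusted p = 0.179).

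Other readouts of the white matter cells give the setting of this value. Thinned to 50 transcripts, 71.6% and 77.3% of the white matter astrocyte-like cells of the young sections and 51.6% and 56.5% of the aged sections held Aqp4. Without thinning the shares were 81.3%, 79.5%, 63.7% and 73.4%, at median depths of 115, 118, 90 and 124 transcripts, and 173 of 209, 155 of 205, 255 of 353 and 227 of 297 cells had the 50 transcripts that thinning needs. Gfap in the same cells was at 426, 465, 548 and 422, so it did not part the ages. Igfbp5 did, at 197 and 188 in the young and 117 and 135 in the aged sections, and its part in the Aqp4 value was not tested. More than 300 µm from the ventricle wall Aqp4 was at 300.3, 369, 183 and 184.5, and over 100 µm from grouped fibroblast-like cells it was at 308, 381, 166 and 188.5, so the 2 ages were as far apart in those subsets. White matter held more astrocyte-like cells in the aged sections (353 and 297) than in the young ones (209 and 205), and the amount of white matter in a section cannot be told apart from its age.

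None of the other interaction tests of the 8 genes passed. A test that does not pass here does not show that the change with age was equal between zones. On simulated counts the white matter interaction recovered 9% of log2 changes of 0.5 and 59% of changes of 1. Those counts had no differences between sections or zones beyond the changes put in, so the shares may not hold for the real sections. At an unadjusted p under 0.05 there were 4 of the other interaction tests by edgeR. Gja1 differed by 0.21 in other grey matter (adjusted p = 0.244), where it was at 741 and 721 in the young and 810 and 728 in the aged sections. At the ventricle wall Plpp3 differed by -0.33 (adjusted p = 0.102), with 779.6 and 688 against 511 and 653, and Sox9 by -0.40 (adjusted p = 0.294), with 182 and 130.4 against 112 and 151. Cldn10 differed by 0.74 between the dorsal and ventral striatum (adjusted p = 0.956). The percent of panel genes that passed was 0.743 at the wall and 0.0 in other grey matter, near vessels and along the dorsal and ventral striatum.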

How the data were processed

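MERFISH data of 2 young and 2 aged sections were used, named by the sample titles. Labels inside the files of the young sections carry other numbers, so the numbering of these rests on the titles. Images had been decoded by the authors (MERLIN) and cells segmented. The deposited counts are whole numbers of transcripts per gene and cell, with no normalization or filter. The deposited volume of each cell is a signal in cubic micrometres, and a table of mean counts per cell by the authors served to check the reading of the files.

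Cells with fewer than 10 genes or less than 50 µm³ were dropped, after the methods of the study. Counts of 375 genes, without the 8 described, were scaled to the total of each cell over these genes and put on a log scale. They were clustered in 2 tiers (15 principal components, 20 neighbours, Louvain at resolutions 0.08 and 0.3, igraph 0.11.9). A cluster took the name of the marker list with the highest median fold, given at least 3 markers above 1.5-fold. Second-tier clusters drawn mostly from a single section stayed unnamed. So did a cluster of 1260 cells that had the astrocyte list in front but lay inside the first-tier cluster named mural. Its leading genes included Gja1, F3 and Aqp4, and its cells were in no class and no comparison. Cells with at least 3 markers of their own and of another class were left out as mixed, and no other doublet caller was run. Transcripts can spill across cell outlines, and markers of other classes are given beside the results for that reason. Striatal outlines were drawn on squares of 50 µm with an erosion of 6 squares, and grouped ependymal-like or fibroblast-like cells had at least 3 others within 100 µm. The dorsal side was taken as that of the largest white matter patch.

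Counts were summed per section, or per section and zone, and tested with edgeR 4.0.16 in R 4.3.3 (TMM, filterByExpr, quasi-likelihood test, Benjamini-Hochberg adjustment over all panel genes tested, threshold 0.05). Zone comparisons had the section as a block, and ages had no covariate. Fold changes and log2 differences are those of the fit. The scripts were tested on simulated data with log2 changes of 0.5 and 1. The simulated libraries had the totals of the real ones, a single mean profile and a fixed dispersion. Changes were placed in genes above the median level. The fit recovered 50% and 100% of them for age, 67% and 98% for white matter, and 9% and 59% for the interaction of age and white matter. Alternatives were library size alone, counts per volume, no filter, DESeq2 1.42.0, mixed cells kept, the first clustering tier, other zone limits, the replicate number as a block, and each section left out. Likeness used log2 of the level plus 0.1. The remaining tools were Python 3.11.15 with scipy 1.17.1, pandas 2.3.3, numpy 2.4.6, matplotlib 3.10.9 and scikit-learn 1.9.0. Gene positions are those of GENCODE on GRCm38, and 5 of the 8 genes had promoters in the RefSeq table for GRCm38.p6.

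The 8 genes, the list of 22 other astrocyte genes and the marker lists were chosen with earlier results of these data known. The text names the 8 genes always, the 2 most similar panel genes of each, and up to 4 called genes of the list with the largest change.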

Additional observations from a re-analysis of the deposited data

Results flagged for a closer look

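The change of Aqp4 with age differed between white matter and striatum by the interaction term of the fit (log2 difference -0.63 ± 0.17 SE, adjusted p = 0.0275, edgeR). Aqp4 in white matter astrocyte-like cells was at 315 and 388 in the young and 187 and 193 in the aged sections, and in striatal ones at 169 and 189 against 151 and 165. The direction held in 12 of 12 alternatives, but the call held in 3 of them. It was lost with library size alone, per cell volume, without a filter, by DESeq2 and at the other zone limit.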

How the results depend on the processing

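Scaling to the 22 other astrocyte genes, leaving out cells near fibroblast-like cells and the crossed pairing were chosen after seeing the data. The 8 genes gave 96 differences over all comparisons. For the 33 with an unadjusted p under 0.05, and for the ratios between classes, 330 values kept their direction and side of the threshold, 54 lost the call, 11 gained it, 10 moved and 3 reversed. Over the comparisons, 212 counts of calls stayed within 1.5 times the reported count while 76 did not. The 3 reversed values were those of Gja1 in white matter per cell volume (-0.075), F3 in other grey matter with mixed cells kept (-0.063) and Gja1 near vessels in the striatal zone alone (-0.0078). For the other 63 differences, 597 of 752 values kept direction and side, 6 gained a call and 149 changed sign, in 46 differences whose reported size had a median of 0.058 and a maximum of 0.27 on the log2 scale. Of the values that changed sign, 2 were called, for Gja1 in other grey matter with mixed cells kept (-0.14) and Plpp3 near vessels per volume (0.086). The gained calls were those of Plpp3 in striatal cells with age without young replicate 2, Prodh in white matter per volume, Sox9 in other grey matter with mixed cells kept, Sox9 and Prodh near vessels per volume, and Plpp3 for the interaction near vessels without aged replicate 2. Of the 8 genes, library size alone called 3 in other grey matter. Near vessels, 6 were called per volume and 1 with mixed cells. Between dorsal and ventral striatum, 1 was called per volume, by DESeq2 and with scaling to astrocyte genes. The interaction in white matter called 0 with library size alone, per volume, without a filter, by DESeq2 and at a zone limit of 50%. With age, panel genes called numbered 1 by DESeq2 and 13 in the first tier for all astrocyte-like cells. In striatal ones they numbered 3 with library size alone, 3 per volume, 1 by DESeq2, 1 with scaling to astrocyte genes, 4 with mixed cells, 3 in the first tier and 1 at a limit of 50%. Near vessels 55 panel genes were called per volume, 14 by DESeq2, 45 with mixed cells, 13 at limits of 15 and 30 µm and 1 in the striatal zone alone, against 25. DESeq2 called 24 between dorsal and ventral striatum, against 51. For interactions, white matter had 2 panel genes called with mixed cells and 0 with library size alone, per volume, without a filter, by DESeq2 and at 50%. The wall had 0 per volume, without a filter and with mixed cells, 4 by DESeq2, 6 with scaling to astrocyte genes and 7 at 50%. Other grey matter had 1 with scaling to astrocyte genes, vessels 1 without a filter, and dorsal against ventral striatum 1 with that scaling and 1 with mixed cells. The cause was not tested in these cases.

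With each section left out in turn, the 8 genes called numbered 0 to 0 with age in all astrocyte-like cells, 0 to 3 in striatal ones, 4 to 5 in white matter, 2 to 4 in other grey matter, 4 to 6 at the wall, 0 to 2 near vessels and 1 to 2 between dorsal and ventral striatum. Panel genes called numbered 0 to 5, 0 to 14, 120 to 137, 105 to 120, 81 to 95, 14 to 29 and 31 to 45 in the same order. For the interactions the 8 genes numbered 0 to 0 in white matter and other grey matter, 0 to 1 at the wall and near vessels and 0 to 0 between dorsal and ventral striatum, and panel genes 0 to 2, 0 to 6, 0 to 8, 0 to 5 and 0 to 0. A lone section of an age was assumed to vary like the other sections.

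Counts per volume moved the median of all panel genes to -0.36 and -0.34 with age, -0.34 in white matter, -0.15 at the wall and 0.11 near vessels, and library size alone and scaling to astrocyte genes moved it to 0.28 and 0.26 at the wall. The share of calls that were higher was 28.5% per volume in white matter (48.4% as reported), 64.7% with library size alone, 33.7% per volume and 64.5% with scaling to astrocyte genes at the wall (48.5%), 64.7% with library size alone in other grey matter (54.1%) and 81.8% per volume near vessels (36.0%).

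Sections of the 2 ages share replicate numbers alone. Their deviations correlated at -0.1 over 369 genes and -0.154 over 278 genes of striatal cells, and the replicate block called 0 of the 8 genes in both sets, with 0 and 2 panel genes. With the numbers crossed, 0 and 1 panel genes were called. The 13 to 63 transcripts of Cldn10 and Fzd2 per section limit their precision at the wall.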
